A study of Mus musculus with 8 samples.

Results

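Sox13, Sox4, Etv5, Blk, 5830411N06Rik, Maf and Rora are 7 genes best known from gamma-delta T cells and other innate-like T cells, and their RNA was followed here in thymic natural killer T (NKT) cells with and without Ezh2. They are 7 of the 27179 genes counted, and all 7 were among the 13794 genes with enough reads to test. They were selected by name as regulators or markers of gamma-delta and innate-like programs, with their levels across stage and genotype in these same libraries already known, so their own levels and changes are given as a description and not as tests. Every mouse was C57BL/6. The groups were WT CD44+ NK1.1- cells and Ezh2-KO CD44+ NK1.1- cells with 2 biological replicates each, and WT CD44+ NK1.1+, Ezh2-KO CD44+ NK1.1+, WT CD44- NK1.1- and Ezh2-KO CD44- NK1.1- cells with 1 library each, 8 libraries in all. No agent or treatment is named for any group. The age of the mice, the Ezh2 allele, what drives its deletion and how many animals a library holds were not stated in the labels read for this work.

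NKT cells are T cells with a nearly fixed alpha-beta receptor that sees lipids on CD1d. In the thymus they pass from a CD44- NK1.1- stage through a CD44+ NK1.1- stage, which mixes cells poised for interleukin-4 or interleukin-17, to a CD44+ NK1.1+ stage rich in interferon-gamma producers. Gamma-delta T cells carry the other kind of T cell receptor, and those that make interleukin-17 are programmed in the thymus by the HMG-box factors Sox13 and Sox4, the ETS factor Etv5, the kinase Blk and the bZIP factor c-Maf. The nuclear receptor encoded by Rora binds genes of the interleukin-17 program itself. Ezh2 is the catalytic subunit of PRC2, the Polycomb complex that places methyl groups on lysine 27 of histone H3, often at promoters rich in CG dinucleotides.

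The CG content before the start sites differed widely among the 7 genes. RefSeq promoter windows on build GRCm38.p6 were matched for 5 of the 7 (8 windows). The 250 bases before the Sox13 start held 31 CG dinucleotides, more than 94.8% of the 32851 windows of that length in the table, whose median was 6. Etv5 had windows with 27 and 18, Rora had 26, Sox4 had 11 and each of the windows of 5830411N06Rik had 2. The parts of 3 windows that lie before every annotated transcript of their gene are printed because these genes return in the results. They are Sox4 at chr13:28953714-28953949 on the minus strand, Etv5 at chr16:22439720-22439820 on the minus strand and 5830411N06Rik at chr7:140247051-140247278 on the plus strand. Each reads 5′ to 3′ along its gene, with the CG dinucleotides in capitals.
Sox4: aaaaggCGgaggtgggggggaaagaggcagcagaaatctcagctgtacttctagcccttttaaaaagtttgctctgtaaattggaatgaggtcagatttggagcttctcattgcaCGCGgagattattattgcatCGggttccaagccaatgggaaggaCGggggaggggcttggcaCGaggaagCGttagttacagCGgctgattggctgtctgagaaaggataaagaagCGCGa
Etv5: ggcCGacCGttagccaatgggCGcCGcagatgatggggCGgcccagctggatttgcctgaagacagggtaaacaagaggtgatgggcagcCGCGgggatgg
5830411N06Rik: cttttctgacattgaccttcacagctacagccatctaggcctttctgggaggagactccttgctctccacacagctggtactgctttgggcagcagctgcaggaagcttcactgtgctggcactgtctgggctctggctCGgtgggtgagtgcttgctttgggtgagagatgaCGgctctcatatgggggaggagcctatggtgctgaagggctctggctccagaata
The printed stretches hold 10, 7 and 2 CG dinucleotides in that order, and that of Etv5 is only 101 bases of its window with 27. The Sox13 window overlaps annotated transcripts of the gene almost wholly and is described by its composition alone. The Rora window and the Etv5 window with 18 lie inside the annotated span of their genes and are treated likewise. A search of both strands of the full windows for AACAAT (a SOX core), CTTTGA (a TCF and LEF core), CCGGAA (an ETS core) and AGGTCA (a short ROR element), none of which contains another, found AGGTCA once in the Sox4 window and once in the first 5830411N06Rik window. These motifs were present in 9.42%, 13.8%, 12.0% and 14.0% of all windows. No histone or binding data were analysed here, and a match in letters is not a bound site.

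**Figure D1:**
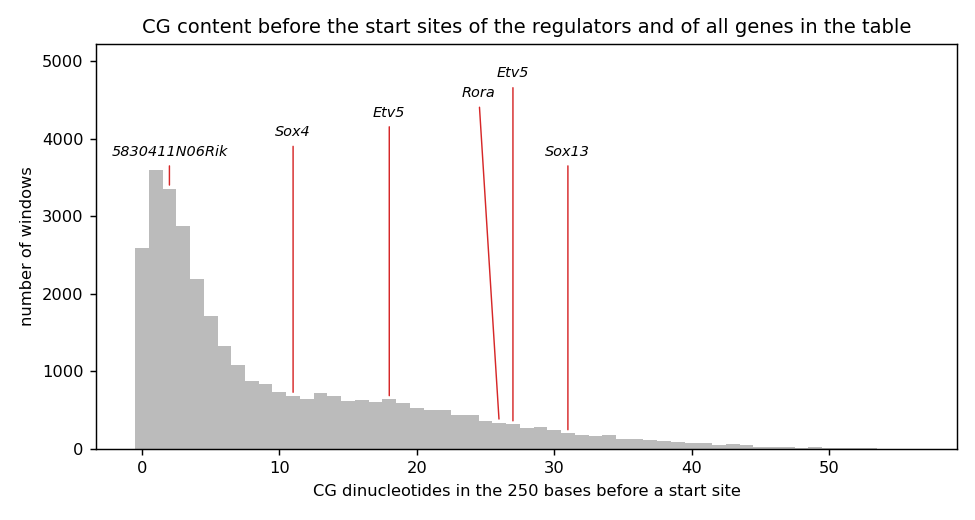
Grey bars count all 32851 RefSeq windows of 250 bases (vertical axis, number of windows) by their CG dinucleotides (horizontal axis, number per window). Red lines mark the windows of the 5 genes with an entry, from 5830411N06Rik with 2 to Sox13 with 31.

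Total counts ranged from 20308745 to 22995090 per library, so that 3 counts, the limit taken for a gene without reads, came to 0.129 to 0.151 CPM (counts scaled by library size), which covers counting error only. Levels are CPM after TMM scaling, as mean ± SD where a group had 2 replicates. Ezh2 itself was at 125 ± 15.9 CPM in WT and 80.6 ± 3.81 CPM (SD, n = 2) in Ezh2-KO CD44+ NK1.1- cells, and at 57.1 against 40.4 and 109 against 78.4 CPM in CD44+ NK1.1+ and CD44- NK1.1- cells, so reads counted for the gene were present in every Ezh2-KO library. Exons of Ezh2 share 174 bases with the long noncoding RNA Gm26625 on the opposite strand, whose reads cannot be told apart from them, since the strand setting of the counting is not given. The 10 T and NKT cell markers summed to 4427 to 7587 CPM. WT CD44+ NK1.1- replicate 1 stood apart: 12 immediate early genes summed to 3299 CPM there and to 565 to 1314 CPM in the other 7 libraries, and 8 immature thymocyte markers to 86.7 CPM against 15.3 to 64.9 CPM.

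Other lists moved with genotype. In edgeR at an adjusted p of 0.05, 3.78% of all genes were higher and 1.16% lower in Ezh2-KO CD44+ NK1.1- cells. In CD44+ NK1.1+ cells 0.79% were higher, and in CD44- NK1.1- cells 0.239% passed in either direction. The 13 NKT1 genes summed to 2577 and 1635 CPM in WT and 1079 and 1034 CPM in Ezh2-KO CD44+ NK1.1- cells, with 4 of 13 lower and none higher at an adjusted p of 0.05 in edgeR, and to 10161 against 9832 CPM in CD44+ NK1.1+ and 852 against 567 CPM in CD44- NK1.1- cells, where none passed (0 and 4 at an unadjusted p under 0.05, 0 and 2 by DESeq2). Of 8 NKT2 genes none rose in any subset by edgeR. In Ezh2-KO, 2 fell in CD44+ NK1.1-, 2 in CD44+ NK1.1+ and 1 in CD44- NK1.1- cells. As lower, 0.159% of all genes passed in CD44+ NK1.1+ and 0.058% in CD44- NK1.1- cells. The NKT2 sums were 1646 and 1508 against 1541 and 1603, 818 against 1021, and 1909 against 1860 CPM in that order, WT first. Over the 3 subsets 2 NKT2 genes rose and 2 fell (6.43% and 4.89% of all genes). Of 7 natural killer and innate lymphoid markers, 2 rose in Ezh2-KO CD44+ NK1.1- cells (Eomes and Klra4), 3 in CD44+ NK1.1+ (these and Il1rl1) and 1 in CD44- NK1.1- (Eomes), and none fell. Their sums were 180 and 168 against 197 and 209, 167 against 438, and 170 against 164 CPM in that order, WT first. This list shares a gene with the NKT2 list, so its sums are not a level of natural killer or innate lymphoid cells alone. Ncr1, a defining receptor of natural killer cells, had 98 counts in WT and 135 in Ezh2-KO CD44+ NK1.1+ cells and 0 to 5 in the other 6 libraries. With either Ezh2-KO CD44+ NK1.1- replicate left out, none of the NKT1 genes passed in that subset and only 1 marker did in each CD44+ subset. Without WT replicate 1 or 2 of that subset, 9 or 12 NKT1 genes fell and 2 or 1 rose there. The part of these signals in the results below was not tested, and each gene's values in both WT replicates are given. In bulk RNA, fewer cells with a transcript and less of it per cell cannot be told apart.

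Sox13 (gene identifier 20668, chromosome 1, 133382300 to 133424459 on mm10) encodes an HMG-box factor that binds TCF1 and marks early gamma-delta thymocytes. In WT it measured 304 CPM in CD44- NK1.1- cells, 61.8 and 56.8 CPM in the CD44+ NK1.1- replicates and 20.3 CPM in CD44+ NK1.1+ cells. In Ezh2-KO the same stages had 294, then 161 and 155, then 101 CPM. The level was lower at each later stage in both genotypes, and the genotypes lay close together at the first stage and apart at the other two. Ezh2-KO exceeded WT 2.66-fold in CD44+ NK1.1- cells and 5.01-fold in CD44+ NK1.1+ cells, and was 0.969 of WT in CD44- NK1.1- cells. On the log2 scale these differences were 1.41 (SE 0.10), 2.32 (SE 0.14) and -0.05 (SE 0.13).

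Seen along development, Sox13 fell 15.0-fold from the first to the last stage in WT and 2.90-fold in Ezh2-KO. The step from CD44- NK1.1- to CD44+ NK1.1- was 5.12-fold in WT and 1.86-fold in Ezh2-KO, and the next step 2.93-fold in WT and 1.56-fold in Ezh2-KO. Ordered by level, the 2 CD44- NK1.1- libraries came first, then CD44+ NK1.1- and CD44+ NK1.1+ cells of Ezh2-KO, then CD44+ NK1.1- and CD44+ NK1.1+ cells of WT. The replicates of CD44+ NK1.1- cells differed by SD 3.53 CPM in WT and 3.73 CPM in Ezh2-KO, less than any step between neighbours in that order that involves them. The first 2 places belong to single libraries, and whether they differ cannot be judged.

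Sox4 (identifier 20677, chromosome 13, 28948919 to 28953699), an HMG-box factor of early lymphocytes that is required for interleukin-17 programmed gamma-delta cells, also dropped with each stage. WT cells had 90.4 CPM at CD44- NK1.1-, 31.8 and 33.8 CPM at CD44+ NK1.1- and 8.78 CPM at CD44+ NK1.1+. Ezh2-KO cells had 65.7, then 44.8 and 35.8, then 10.9 CPM. Ezh2-KO was thus the lower of the pair at the first stage and the higher at the others, with both Ezh2-KO replicates of CD44+ NK1.1- cells above both WT replicates. The log2 differences of Ezh2-KO from WT were -0.46 (SE 0.19), 0.30 (SE 0.14) and 0.31 (SE 0.21) in stage order. The value at CD44+ NK1.1- was 0.13 without Ezh2-KO replicate 1 and 0.45 without replicate 2. From the first to the last stage Sox4 fell 10.3-fold in WT and 6.02-fold in Ezh2-KO. Immature thymocyte markers were highest in WT CD44+ NK1.1- replicate 1, and the part of such cells in the Sox4 values was not tested. Exons of Sox4 share 2616 bases with Gm26735, a long noncoding RNA on the opposite strand, and since the strand setting of the counting is not given, reads of the pair cannot be told apart.

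Of all genes tested, 7.83% had a level that dropped at both steps in both genotypes with no overlap between libraries. Sox13 and Sox4 were the members that did so, and since the genes were selected on stage as well as genotype, nothing is read from that count.

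**Figure D2:**
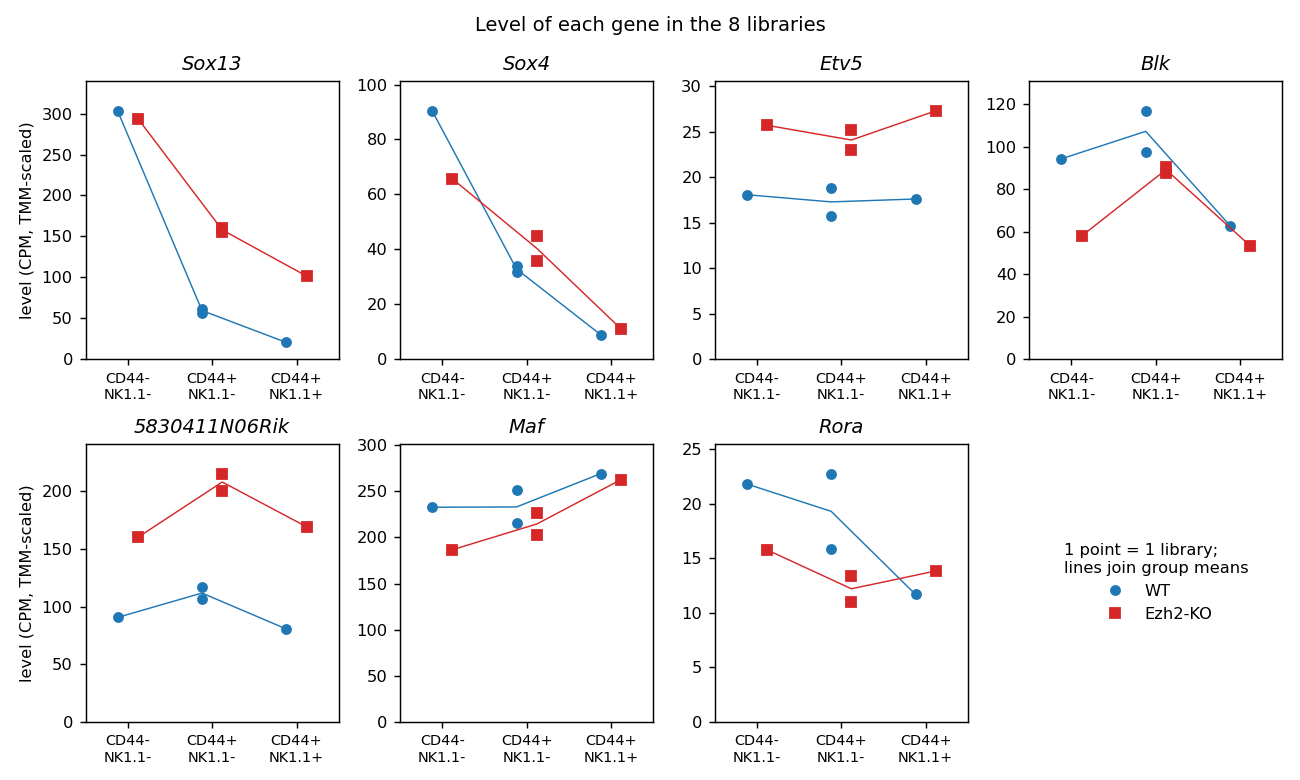
Each panel shows 1 gene, with CPM on a vertical axis that starts at 0 and the 3 subsets on the horizontal axis. Points are single libraries (blue circles WT, red squares Ezh2-KO) and lines join group means. Sox13 of Ezh2-KO stays at 101 CPM in CD44+ NK1.1+ cells where WT has 20.3, Etv5 and 5830411N06Rik of Ezh2-KO lie above WT in every subset, and Sox4 drops in both genotypes.

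Etv5 (identifier 104156, chromosome 16, 22381313 to 22439570) encodes an ETS factor that acts with Sox13 and Sox4 in gamma-delta cells and responds to ERK signalling. Its level was low and flat over stages. WT libraries had 18.1 CPM at CD44- NK1.1-, 15.7 and 18.8 CPM at CD44+ NK1.1- and 17.6 CPM at CD44+ NK1.1+. Ezh2-KO libraries had 25.7, then 25.2 and 22.9, then 27.3 CPM. Within each subset every Ezh2-KO library lay above every WT library. The log2 difference was 0.51 (SE 0.20), 0.48 (SE 0.14) and 0.63 (SE 0.20) in stage order and 0.52 (SE 0.09) over the 3 subsets in a model with 1 genotype effect.

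The gene 5830411N06Rik (identifier 244234, chromosome 7, 140247279 to 140300734), also called Scart2, encodes a scavenger receptor with cysteine-rich domains that is found on interleukin-17 producing gamma-delta T cells. WT libraries had 90.5 CPM at CD44- NK1.1-, 107 and 117 CPM at CD44+ NK1.1- and 80.5 CPM at CD44+ NK1.1+. Ezh2-KO libraries had 160, then 215 and 201, then 169 CPM. Again every Ezh2-KO library exceeded every WT library of its subset. Ezh2-KO over WT was 1.77-fold, 1.86-fold and 2.10-fold in stage order, with log2 differences of 0.82 (SE 0.14), 0.90 (SE 0.10) and 1.07 (SE 0.14). In contrast to Sox13, the difference was present in the CD44- NK1.1- libraries too. Both genotypes had their highest level at CD44+ NK1.1-.

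Among all genes, 15.5% had Ezh2-KO above WT in every subset without overlap and 14.5% had it below. The first pattern held for Etv5 and 5830411N06Rik and the second for Blk.

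Blk (identifier 12143, chromosome 14, 63372837 to 63417187) encodes a Src family kinase of B cells that is also used by interleukin-17 producing gamma-delta cells. WT libraries had 94.2 CPM at CD44- NK1.1-, 97.5 and 117 CPM at CD44+ NK1.1- and 62.7 CPM at CD44+ NK1.1+. Ezh2-KO libraries had 57.9, then 87.7 and 90.6, then 53.2 CPM. The Ezh2-KO libraries were the lower ones within each subset, by -0.70 (SE 0.17), -0.27 (SE 0.12) and -0.24 (SE 0.17) on the log2 scale in stage order. Without WT replicate 2 the value at CD44+ NK1.1- was -0.13, and without WT replicate 1 it was -0.39. Blk was lowest at CD44+ NK1.1+ in both genotypes, 1.71-fold below CD44+ NK1.1- in WT and 1.68-fold in Ezh2-KO. The 8 B cell markers together summed to 1.30 to 15.6 CPM, below Blk in every library, with Pax5 at 2 counts in WT CD44+ NK1.1- replicate 1 and at 0 in the other 7 libraries. The sums were 15.6 CPM in WT and 13.7 CPM in Ezh2-KO CD44+ NK1.1+ cells. From CD44- NK1.1- to CD44+ NK1.1+ cells, 2 of the 3 tested B cell markers rose and none fell (16.0% and 16.2% of all genes). They were Cd22 (5.29 on the log2 scale) and Cd79b (2.27), so Pax5 does not stand for the whole list. The part of B cells in the Blk values was not tested.

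Maf (identifier 17132, chromosome 8, 115703253 to 115706894), which encodes c-Maf, was abundant and similar throughout. WT libraries had 233 CPM at CD44- NK1.1-, 215 and 251 CPM at CD44+ NK1.1- and 269 CPM at CD44+ NK1.1+, and Ezh2-KO libraries had 187, then 227 and 202, then 263 CPM. The ranges of the genotypes overlapped at CD44+ NK1.1-, where the log2 difference was -0.12 (SE 0.12). It was -0.23 and -0.0042 without WT replicate 1 or 2, and -0.20 and -0.04 without Ezh2-KO replicate 1 or 2. At CD44- NK1.1- and CD44+ NK1.1+ it was -0.32 (SE 0.17) and -0.04 (SE 0.17). Exons of Maf share 440 bases with the antisense gene Gm15655.

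Rora (identifier 19883, chromosome 9, 68653404 to 69388246), which encodes a nuclear receptor, ranged from 11.0 to 22.8 CPM. WT libraries had 21.8 CPM at CD44- NK1.1-, 22.8 and 15.8 CPM at CD44+ NK1.1- and 11.7 CPM at CD44+ NK1.1+. Ezh2-KO libraries had 15.8, then 13.4 and 11.0, then 13.8 CPM. Ezh2-KO was lower at the first 2 stages, with log2 differences of -0.47 (SE 0.30) and -0.66 (SE 0.21), and slightly higher at the last (0.24, SE 0.30). WT replicate 1 of CD44+ NK1.1- cells, the library with the high immediate early sum, also had the highest Rora. Without it the log2 difference at CD44+ NK1.1- was -0.38, and without WT replicate 2 it was -0.90. The counted length of Rora covers 12.6% of its annotated exon bases, so much of its longest transcripts was not counted. Its exons share 82 bases with the antisense gene Gm15511.

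Per kilobase of counted length, Maf was the most abundant of the 7 in WT CD44+ NK1.1- cells at 64.0 ± 6.95 RPKM (SD, n = 2), followed by Blk at 43.3 ± 5.51 and 5830411N06Rik at 28.2 ± 1.74 RPKM. Sox13 had 16.8 ± 0.998, Rora 11.7 ± 2.98, Sox4 11.0 ± 0.462 and Etv5 4.52 ± 0.574 RPKM. Rora and Sox4 did not differ beyond their spread. In Ezh2-KO CD44+ NK1.1- cells, 5830411N06Rik reached 52.4 ± 2.63 and Sox13 44.7 ± 1.06 RPKM, both above Blk at 36.0 ± 0.817 RPKM, while Maf stayed first at 58.9 ± 4.80 RPKM. In WT CD44- NK1.1- cells Sox13 itself was first, at 86.0 RPKM against 63.9 for Maf. The counted length covers 44.2% of the annotated exon bases of Maf, 61.9% for Sox4 and 12.6% for Rora. For the other members it covers 71.7% to 93.2%, so this ranking holds per counted base only.

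**Figure D3:**
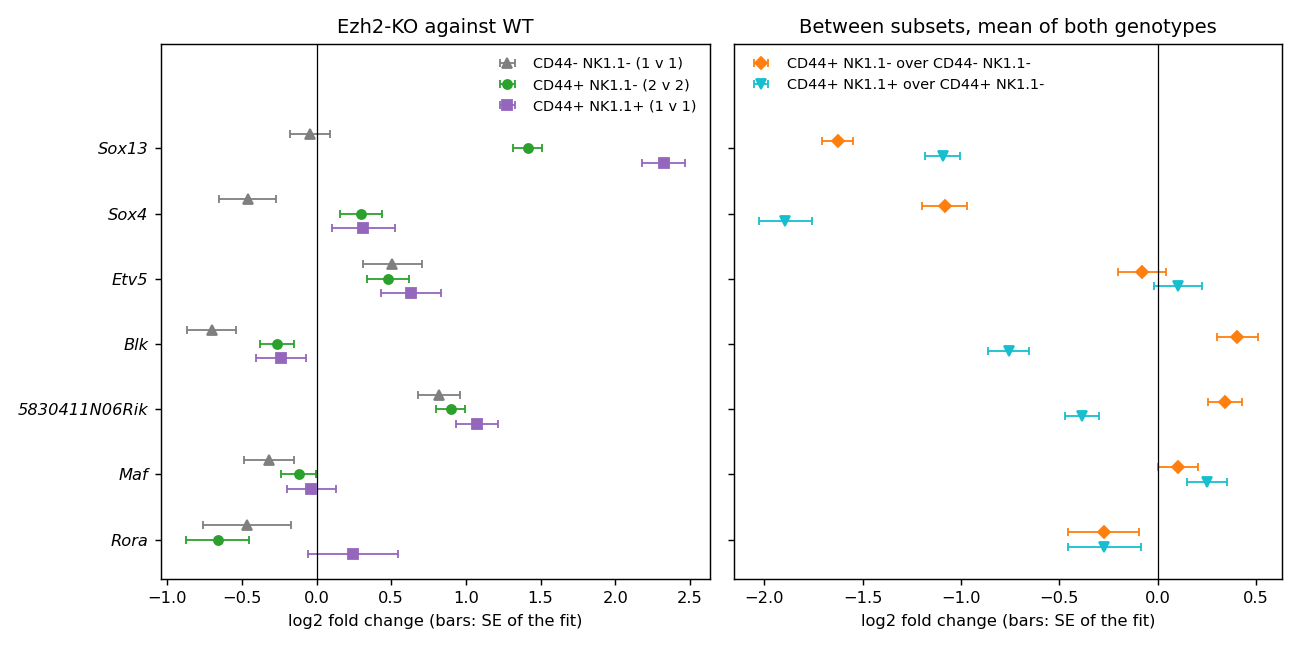
Log2 fold changes (horizontal axes) of the 7 genes with bars of 1 standard error from the fit, on the left Ezh2-KO over WT in each subset (1 v 1 or 2 v 2 libraries) and on the right between subsets as the mean of both genotypes. Sox13 goes from -0.05 at CD44- NK1.1- to 2.32 at CD44+ NK1.1+ on the left, while 5830411N06Rik and Etv5 stay to the right of 0 in all 3 subsets.

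How many of the 7 passed an adjusted p of 0.05 in edgeR's quasi-likelihood test is set beside the share of all genes that did, without further reading, since the selection used these contrasts. For Ezh2-KO against WT in CD44+ NK1.1- cells, Sox13 and 5830411N06Rik passed as higher (3.78% of all genes) and none as lower (1.16%). In CD44+ NK1.1+ cells the same 2 passed as higher (0.79%). In CD44- NK1.1- cells 0 of 7 passed (0.239% of all genes in either direction), 3 had an unadjusted p under 0.05 and 1 passed with DESeq2. Over the 3 subsets 5830411N06Rik and Etv5 passed as higher (6.43%) and Blk as lower (4.89%). Single libraries were assumed to vary like the replicated groups.

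Between subsets, as the mean of both genotypes, Sox13 (-1.63, SE 0.08) and Sox4 (-1.08, SE 0.12) passed as lower in CD44+ NK1.1- than in CD44- NK1.1- cells (1.07% of all genes lower, 1.59% higher). From CD44+ NK1.1- to CD44+ NK1.1+ cells Sox4 (-1.89, SE 0.14), Sox13 (-1.09, SE 0.09), Blk (-0.76, SE 0.10) and 5830411N06Rik (-0.39, SE 0.09) passed as lower (16.1%) and none as higher (16.4%). From CD44- NK1.1- to CD44+ NK1.1+ cells Sox4 (-2.98, SE 0.15) and Sox13 (-2.72, SE 0.10) passed as lower (16.2%) and none as higher (16.0%).

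The genotype difference of Sox13 was smaller in CD44- NK1.1- than in CD44+ NK1.1- cells by -1.46 (SE 0.16) and larger in CD44+ NK1.1+ than in CD44+ NK1.1- cells by 0.91 (SE 0.17). For Sox4 the first of these contrasts was -0.76 (SE 0.24), and for Rora the second was 0.91 (SE 0.37). By edgeR 0 of 7 passed in the first contrast (0.0217% of all genes), with 2 at an unadjusted p under 0.05 and 1 passing with DESeq2. In the second 0 of 7 passed (0.0% of all genes), with 2 at an unadjusted p under 0.05 and 0 with DESeq2.

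Among genes of the interleukin-17 program, Ccr6 was the one called for genotype in CD44+ NK1.1- cells. Of 21 program genes, all tested, 0 rose and 1 fell in Ezh2-KO CD44+ NK1.1- cells by edgeR (6 had an unadjusted p under 0.05, and DESeq2 called 0 and 2), with a median log2 change of -0.19 against -0.01 over all genes. Over all genes 3.78% passed as higher and 1.16% as lower, so with 21 genes a count of 1 is near the background. Ccr6, a homing receptor of interleukin-17 producing cells, went from 12.0 and 20.3 CPM in WT to 3.96 and 4.45 CPM in Ezh2-KO (-1.94, SE 0.28, adjusted p = 0.0186). Without either Ezh2-KO replicate none of the 21 passed, and without WT replicate 1 or 2, 3 rose and 7 or 8 fell. In CD44+ NK1.1+ cells none passed by edgeR (7 at an unadjusted p under 0.05, 1 by DESeq2), and in CD44- NK1.1- cells none by either tool (4 at an unadjusted p under 0.05). Over the 3 subsets in the model with 1 genotype effect, 0 rose and 2 fell (6.43% and 4.89% of all genes), Ccr6 and Ahr, and leaving out 1 library gave 0 or 1 and 1 to 3.

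Over the first developmental step, where Sox13 and Sox4 dropped, most program genes that changed rose. From CD44- NK1.1- to CD44+ NK1.1- cells, 9 of the 21 rose and 1 fell (1.59% and 1.07% of all genes), with a median of 0.61 against 0.00 over all genes. Among those that rose were the interleukin-23 receptor gene Il23r (4.05, SE 0.24, adjusted p = 0.00177), the interleukin-1 receptor gene Il1r1 (2.91, SE 0.11, adjusted p = 0.000506) and Ccr6 (6.88, SE 0.49, adjusted p = 0.00235), which had 1 and 2 counts in the CD44- NK1.1- libraries of WT and Ezh2-KO. Cd163l1, the neighbour in kind of 5830411N06Rik known as Scart1, fell (-0.82, SE 0.09, adjusted p = 0.00938), from 73.7 to 38.3 and 40.2 CPM in WT and from 56.8 to 35.0 and 33.7 CPM in Ezh2-KO. Without Ezh2-KO CD44+ NK1.1- replicate 1 the counts were 5 risen and 0 fallen, and without replicate 2 they were 6 and 0. Without either WT replicate of that subset they were 14 and 2. From CD44+ NK1.1- to CD44+ NK1.1+ cells 4 of the 21 rose and 5 fell, among the latter Il1r1 and Cd163l1. These counts are near the shares over all genes at that step (16.4% and 16.1%). Scaled by library size alone, 3 rose and 9 fell. Without Ezh2-KO CD44+ NK1.1- replicate 1 the counts of that step were 2 and 3, and without replicate 2 they were 2 and 4. Without WT replicate 1 or 2 they were 6 and 10 or 6 and 12.

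**Figure D4:**
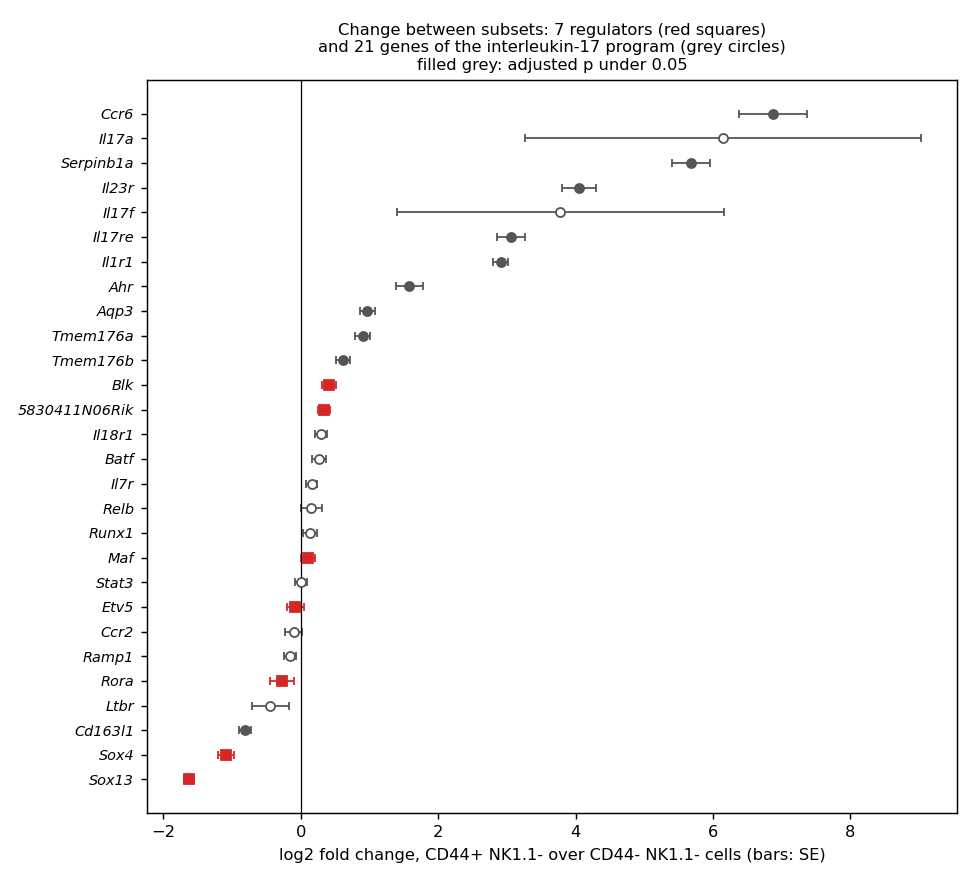
Log2 fold change from CD44- NK1.1- to CD44+ NK1.1- cells (horizontal axis, mean of both genotypes, bars 1 SE) for the 7 regulators (red squares) and the 21 genes of the interleukin-17 program (grey circles, filled where the adjusted p is under 0.05). Ccr6, Il23r and Il1r1 lie far to the right, while Sox13 and Sox4 are the lowest points at -1.63 and -1.08.

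The interleukin-17 cytokine genes had few reads. Il17a had 93 counts in WT CD44+ NK1.1- replicate 1, 3 in replicate 2, 14 and 15 in the Ezh2-KO replicates and 0 to 7 in the other 4 libraries. Il17f had 24 counts in WT replicate 1 and 0 to 2 in the other 7 libraries. Both genes were thus highest in the library with the high immediate early sum.

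The constant genes of the gamma-delta receptor were read next. Of the 5 in the files, all tested, 2 rose in Ezh2-KO CD44+ NK1.1- cells and none fell (3.78% and 1.16% of all genes). The median log2 change of the 5 was 0.66 against -0.01 over all genes. Trdc, the constant gene of the delta chain, went from 10.4 and 6.41 to 33.9 and 34.6 CPM (2.03, SE 0.23, adjusted p = 0.00855), and Trgc1, of a gamma chain, from 223 and 245 to 377 and 366 CPM (0.67, SE 0.10, adjusted p = 0.0173). Trdc had 10.5 CPM in WT and 29.2 CPM in Ezh2-KO CD44+ NK1.1+ cells, and in CD44- NK1.1- cells 8.72 and 7.33 CPM. Like Sox13, Trdc was thus higher in Ezh2-KO than in WT in both CD44+ subsets and not in CD44- NK1.1- cells, though in CD44+ NK1.1+ cells it did not pass. The part of gamma-delta cells in the Sox13 values was not tested. The 4 gamma-delta markers are among these 5 constant genes, so their sums repeat the same counts. The sums were 699 to 850 CPM in the WT libraries of the later stages and 1125 to 1159 CPM in the matching Ezh2-KO libraries. In CD44- NK1.1- cells they were 1047 CPM in WT and 1361 CPM in Ezh2-KO. With either Ezh2-KO replicate left out, none of the 5 constant genes passed, and with either WT replicate left out 4 rose.

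Other SOX genes were few. Of 17 besides Sox13 and Sox4, 5 had enough reads to test. For Ezh2-KO against WT in CD44+ NK1.1- cells, 2 of these rose and none fell, where 3.78% and 1.16% of all genes did. Sox12, a SoxC factor like Sox4, went from 5.72 and 6.66 to 20.7 and 16.5 CPM (1.59, SE 0.18, adjusted p = 0.00822). It also had 7.39 against 2.51 CPM in CD44+ NK1.1+ and 19.9 against 11.1 CPM in CD44- NK1.1- cells, and fell from CD44+ NK1.1- to CD44+ NK1.1+ cells (-1.32, SE 0.17, adjusted p = 0.00377). Sox21 had 0 counts in every WT library, 11 and 15 in the Ezh2-KO replicates of CD44+ NK1.1- cells, 4 in Ezh2-KO CD44+ NK1.1+ and 1 in Ezh2-KO CD44- NK1.1- cells (adjusted p = 0.0486 for the CD44+ NK1.1- comparison, a call lost with DESeq2). Without Ezh2-KO replicate 1 none of the 5 passed, and without replicate 2 Sox12 passed alone.

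Sox13 protein is known to bind TCF1, the product of Tcf7. Of 10 tested TCF, LEF and beta-catenin partner genes, 1 rose in Ezh2-KO CD44+ NK1.1- cells and none fell (3.78% and 1.16% of all genes, list median 0.08). It was Lef1, from 118 and 148 to 286 and 262 CPM (1.04, SE 0.13, adjusted p = 0.0121), a call lost without either Ezh2-KO replicate. Tcf7 had 1037 and 1124 CPM in WT and 1341 and 1262 CPM in Ezh2-KO. From CD44+ NK1.1- to CD44+ NK1.1+ cells 4 of the 10 fell and 2 rose (16.1% and 16.4% of all genes), and those that fell included Tcf7 (-1.25, SE 0.09, adjusted p = 0.000714), Lef1 (-1.40, SE 0.12, adjusted p = 0.00119) and Tcf7l1 (-1.56, SE 0.21, adjusted p = 0.00414). Without Ezh2-KO CD44+ NK1.1- replicate 1 the count was 3 fallen and 1 risen, and without replicate 2 it was 3 and 0. For genotype, 3 rose and 2 fell without WT replicate 1, and 3 and 3 without WT replicate 2. With the subsets fitted together 2 rose, Lef1 and Tcf7, and 2 fell, Axin2 and Tle3 (6.43% and 4.89% of all genes). None of the 10 passed there without either Ezh2-KO CD44+ NK1.1- replicate, and without single other libraries 0 to 2 rose and 0 to 3 fell.

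Besides Etv5, 17 ETS genes were tested and none passed for genotype in any subset by edgeR, with a median of -0.28 in CD44+ NK1.1- cells. There 7 had an unadjusted p under 0.05 and 1 passed with DESeq2. In CD44+ NK1.1+ cells 3 had such a p and 1 passed with DESeq2, and in CD44- NK1.1- cells 3 and 0. Over the 3 subsets, in the model where Etv5 was higher, 3 of the 17 fell and none rose (4.89% and 6.43% of all genes). They were Etv3 (-0.37, SE 0.06, adjusted p = 0.00758), Ets2 (-0.84, SE 0.16, adjusted p = 0.0179) and Fli1 (-0.26, SE 0.07, adjusted p = 0.0406), and Etv3 kept the call in 15 of 15 alternatives, Ets2 in 11 and Fli1 in 7. Leaving out 1 library gave 1 to 5 fallen: 5 without WT CD44+ NK1.1- replicate 1, and 1 without either Ezh2-KO CD44+ NK1.1- replicate or either CD44+ NK1.1+ library. Without WT CD44+ NK1.1- replicate 1 or 2, 4 or 7 fell and 0 or 1 rose in that subset. Etv4 had 2.25 and 2.62 CPM in WT and 3.58 and 3.64 CPM in Ezh2-KO CD44+ NK1.1- cells. Unlike Etv5, Etv4 fell from CD44+ NK1.1- to CD44+ NK1.1+ cells (-1.80, SE 0.23, adjusted p = 0.00376). Of 8 feedback genes of ERK signalling, Spry1 rose in Ezh2-KO CD44+ NK1.1- cells and none fell (3.78% and 1.16% of all genes). Spry1 went from 8.74 and 9.97 to 30.3 and 26.3 CPM (1.60, SE 0.15, adjusted p = 0.00457). Without Ezh2-KO replicate 1 that call was lost, and without WT replicate 1 or 2 the counts were 3 and 2 or 2 and 4. Spry1 and Spred1 rose and Dusp6 fell over the 3 subsets, the last in 9 of 15 alternatives. Among 9 genes listed for receptor signal strength none rose and 2 fell, Egr1 (-0.54, SE 0.10, adjusted p = 0.0355) and Id2 (-0.49, SE 0.09, adjusted p = 0.0353). Id2 is also in the NKT1 list, so its call is counted in both lists. Both calls were lost without either Ezh2-KO replicate. Without WT replicate 1 or 2 the counts were 2 and 6 or 3 and 4.

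Besides Blk, 6 Src family kinases were tested. Of these, 2 rose in Ezh2-KO CD44+ NK1.1- cells and none fell (3.78% and 1.16% of all genes). Lyn went from 6.13 and 4.86 to 19.9 and 19.7 CPM (1.85, SE 0.16, adjusted p = 0.00329), and Yes1 from 12 and 12 to 34 and 41 counts (1.70, SE 0.30, adjusted p = 0.0316). The abundant T cell kinase Lck had 942 and 932 CPM in WT and 945 and 980 CPM in Ezh2-KO. Lyn is also expressed in B and myeloid cells. The 8 myeloid markers summed to 9.46 and 4.13 CPM in the WT replicates and 6.72 and 2.56 CPM in the Ezh2-KO replicates, and the B cell markers to 4.82 and 4.82 against 3.24 and 3.19 CPM. The part of such cells in the Lyn values was not tested. With either Ezh2-KO replicate left out, Lyn alone passed. Without WT replicate 1 or 2, 2 rose and 1 or 2 fell, and DESeq2 called Lyn higher, 1 other gene lower and not Yes1. Lyn and Yes1 rose over the 3 subsets and 2 genes fell (6.43% and 4.89% of all genes). Those that fell were Fgr (-0.96, SE 0.18, adjusted p = 0.0147) and Src (-1.27, SE 0.25, adjusted p = 0.0198). Fgr had 17.7 and 11.0 CPM in WT and 6.68 and 5.62 CPM in Ezh2-KO CD44+ NK1.1- cells, 44.8 against 28.5 CPM in CD44+ NK1.1+ and 6.56 against 3.80 CPM in CD44- NK1.1- cells, so that Ezh2-KO was lower in each subset. Its call was lost without either Ezh2-KO CD44+ NK1.1- replicate, and leaving out 1 library gave 1 or 2 risen and 0 to 2 fallen. From CD44+ NK1.1- to CD44+ NK1.1+ cells, where Blk dropped, 4 rose and none fell (16.4% and 16.1% of all genes), among them Lyn (1.57, SE 0.12, adjusted p = 0.000899) and Fgr (1.93, SE 0.20, adjusted p = 0.00204).

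None of the 3 tested MAF genes besides Maf, neither of the 2 tested ROR and REV-ERB genes besides Rora and none of the 4 tested scavenger receptor genes besides 5830411N06Rik passed for genotype in CD44+ NK1.1- cells by edgeR or DESeq2 (0, 0 and 1 at an unadjusted p under 0.05 by edgeR). Without WT replicate 1, 0 genes of the first 2 lists fell, without WT replicate 2, 2 of each did, and without either 1 scavenger receptor gene rose and 1 fell. The small MAF genes were high in 1 library. Maff had 55.4 CPM in WT CD44+ NK1.1- replicate 1 and 2.01 to 3.13 CPM in the other 7 libraries, and Mafk had 162 against 50.3 to 67.2 CPM.

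Genes with the most similar profile over the 8 libraries were sought among 9298 genes by Pearson's r of log2(CPM + 1), as a description of libraries that share subset and genotype. For Sox13 these were Lrrc1 (r = 0.978), the mitochondrial transhydrogenase gene Nnt (0.976), Rnf2, which encodes a ubiquitin ligase of the other Polycomb complex (0.976), Nlgn2 (0.974) and Akr1e1 (0.971). Rnf2 had a far narrower range than Sox13, from 133 CPM in WT CD44+ NK1.1+ to 208 CPM in WT CD44- NK1.1- cells. For Sox4 they were the integrin gene Itgb3 (0.993), Scd1 (0.992) and She (0.988), and for Etv5 Arhgap21 (0.991), Epb41l2 (0.963) and N4bp2 (0.947).

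The closest profiles to 5830411N06Rik were Tusc3 (0.965), Faf1 (0.955) and Mef2c (0.954). Mef2c, a MADS-box factor, had 0.241 to 0.946 CPM in the WT libraries and 20.9, 43.8, 42.1 and 9.50 CPM in Ezh2-KO CD44- NK1.1-, CD44+ NK1.1- (2 replicates) and CD44+ NK1.1+ cells. For Blk they were Igsf3 (0.975), Sec61a1 (0.970) and Cenpl (0.959), for Maf Mfsd14b (0.976), Pak2 (0.974) and Mfsd5 (0.972), and for Rora Pkd1l3, Cep57 and Slc29a3 (0.919, 0.919 and 0.915). Among the 7 genes themselves the closest pairs were Etv5 with 5830411N06Rik (0.84) and Sox13 with Sox4 (0.81).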

How the data were processed

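RNA of sorted thymic NKT cells from 4 WT and 4 Ezh2-KO samples was sequenced on 4 lanes per library after TruSeq RNA library preparation, per the labels' protocols. The deposited tables hold unnormalised read counts for each gene, which the authors made with CASAVA, Subread 1.4.3-p1 and featureCounts on build mm10, per the submitters' processing notes. Neither annotation nor strand setting is named in the sources used here. Of 27179 gene identifiers, 25275 matched a symbol in RefSeq. The 8 files of single libraries equalled the table of the series.

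Computed here with R 4.3.3 and edgeR 4.0.16: filterByExpr on the 6 groups (13794 genes kept), TMM scaling, robust estimateDisp and glmQLFit, and the quasi-likelihood test with Benjamini-Hochberg adjustment over all genes tested. The model of 6 group means left 2 residual degrees of freedom, and an additive model of subset and genotype left 4. Adjusted p is edgeR's unless another tool is named. Each SE is the absolute log2 change divided by the square root of its quasi-likelihood F statistic. In the model of group means, the spread behind it comes from the replicated groups alone. Correlations were computed on log2(CPM + 1). Positions and promoter windows are RefSeq's, and overlaps and exon lengths GENCODE vM21's. Alternatives included limma 3.58.1 (voom) and DESeq2 1.42.0. The scripts were tested on simulated data.

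Named are the 7 genes, the 5 (Sox13) or 3 genes most like each in profile, and list genes that passed or had the smallest p. Other list genes (Trdc in single comparisons, Tcf7, Lck, Etv4, Maff, Mafk, Il17a, Il17f, Pax5 and Ncr1) were added after their values were seen. A few genes of the lists are not reported here, and the counts leave them out. The members, lists and tests were chosen with earlier results of these data known. The series design text calls the CD44+ NK1.1- replicates biological.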

Additional observations from a re-analysis of the deposited data

Results flagged for a closer look

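3 genes had genotype effects of opposite sign in the 2 subsets with 1 library per genotype, and the difference between those subsets was not tested. Sox13 differed by 2.37 on the log2 scale, from an Ezh2-KO effect of -0.05 in CD44- NK1.1- cells to 2.32 in CD44+ NK1.1+ cells. With scaling by library size alone the first of these was 0.01. Sox4 differed by 0.78, from -0.46 to 0.31, and Rora by 0.71, from -0.47 to 0.24.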

How the results depend on the processing

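No paired analysis was possible because the replicate numbers follow accession order and pair no samples across groups. Over the changes of the 7 genes in 9 comparisons and their alternatives, 789 values kept direction and side of the threshold, 21 lost the call, 56 gained it and 0 of those called turned direction. Another 16, called in neither setting, changed sign. How many of the 7 passed moved by over 1.5 times as follows. For Ezh2-KO against WT in CD44+ NK1.1- cells (2 of 7), leaving out 1 library gave 1 to 7: 7 without WT replicate 1, 5 without WT replicate 2 and 1 without either Ezh2-KO replicate, when only Sox13 passed. Over all genes the same omissions gave 3752, 5792, 101 and 108 calls where all libraries gave 682. Without an Ezh2-KO replicate, the 1 residual degree of freedom comes from the WT pair, and without a WT replicate from the Ezh2-KO pair. In CD44+ NK1.1+ cells (2) the range was 1 to 3, with 3 without either WT CD44+ NK1.1- replicate and 1 without either Ezh2-KO one, and limma-voom gave 1. In CD44- NK1.1- cells (0) it was 0 to 6, and DESeq2 gave 1. Over the 3 subsets (3) it was 1 to 3, with 1 without Ezh2-KO CD44+ NK1.1- replicate 1, and Blk passed in 6 of 15 alternatives. Between CD44- NK1.1- and CD44+ NK1.1- cells (2) it was 1 to 6, with 1 in the Ezh2-KO libraries alone. Between CD44- NK1.1- and CD44+ NK1.1+ cells (2) it was 2 to 5, and library size alone gave 4. The difference of genotype effects gave 0 to 4 for CD44- NK1.1- (main 0, 1 with no filter on low counts, 1 with DESeq2) and 0 to 2 for CD44+ NK1.1+ cells (main 0). Scaling by library size shifted the median of all genes by -0.13 from CD44+ NK1.1- to CD44+ NK1.1+ cells, with 1533 higher and 3294 lower calls in place of 2262 and 2217. Il18r1, a called gene of the interleukin-17 list at that step, turned to -0.12 in the WT libraries alone. The cause of these changes was not tested. Single libraries for 4 of the 6 groups limit what can be shown there.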
